A study of Mus musculus with 18 samples.

Results

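Late and early hours after the addition of HGF to IL-6 were compared in primary mouse hepatocytes, the main metabolic and secretory cell of liver. The late window held the arrays at 8, 9, 10 and 12 h and the early window those at 5, 6 and 7 h, counted from the addition of IL-6. These were 7 of the 18 arrays of the series, chosen by stimulus and hour as the labels give them, and the 24 h array was not used. IL-6 was given at 40 ng/ml from 0 h and HGF at 40 ng/ml from 4 h, so the windows covered 1 to 3 h and 4 to 8 h of HGF. Unstimulated control cells at 4, 8 and 12 h (1 array each) and IL-6 alone at 4 h (1 array) are given beside the members where they help. All cells came from male C57BL/6N mice of 8 to 12 weeks, were plated on collagen I with dexamethasone and insulin, and spent the last hours before stimulation in medium without serum or dexamethasone. An experiment used cells of 1 animal or a pool of up to 3, and no source says which dishes shared an animal.

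Each hour was measured on 1 array, so the hours of a window took the place of replicates. The spread within a window therefore includes change over time, and a p-value speaks only of the variation among these dishes and hours. No array analysed here had IL-6 alone after 4 h, so longer exposure to IL-6, longer exposure to HGF and longer time in culture cannot be told apart within the 7 arrays. The 3 controls give the last of these a reference, with no control between 4 and 8 h.

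IL-6 binds its receptor with the shared subunit gp130 and, through JAK kinases and STAT3, drives the hepatic acute-phase response, in which plasma proteins of defence are made at the cost of other secreted proteins. SOCS3, itself induced by STAT3, ends the signal. HGF activates the receptor tyrosine kinase Met, whose RAS and ERK branch induces immediate early transcription factors within an hour and later prepares hepatocytes for division. Hepatocytes taken into culture are also known to lose detoxifying and metabolic enzymes with time.

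The deposited values are log2 signals, in which a difference of 1 is a 2-fold change, and 18193 genes were measured with 1 probe set each. Hepatocyte RNA was plain in the arrays: Alb, the gene of serum albumin, stood at 14.84, 14.86 and 14.85 in the early window and between 14.80 and 14.83 in the late one. Alb lay near the top of the scale (highest value 15.049), where a change may not show. The mean of 15 hepatocyte markers went from 12.54 at 5 h to 11.95 at 12 h. Signals of genes differ in probe affinity, so levels are compared between arrays and never between genes. One of the 7 arrays stood apart. The array at 10 h had the lowest value of the 7 for 27.3% of genes and the highest for 21.3%, and its mean correlation with the other 6 was 0.9928, against 0.995 to 0.9967 for the others. Malat1, a long RNA retained in the nucleus, lay between 9.16 (6 h) and 11.99 (7 h) in the early window and measured 11.86, 11.40, 12.68 and 10.69 at 8, 9, 10 and 12 h. Neat1, the nuclear RNA of paraspeckles, measured 10.46, 7.97 and 9.75 at 5, 6 and 7 h and then 10.11, 9.29, 11.34 and 8.68. Both RNAs were lowest at 6 h and highest at 10 h, with windows that overlapped (Malat1 limma adjusted p = 0.591, Neat1 adjusted p = 0.833). The part of these nuclear RNAs in the results was not tested.

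**Figure D1:**
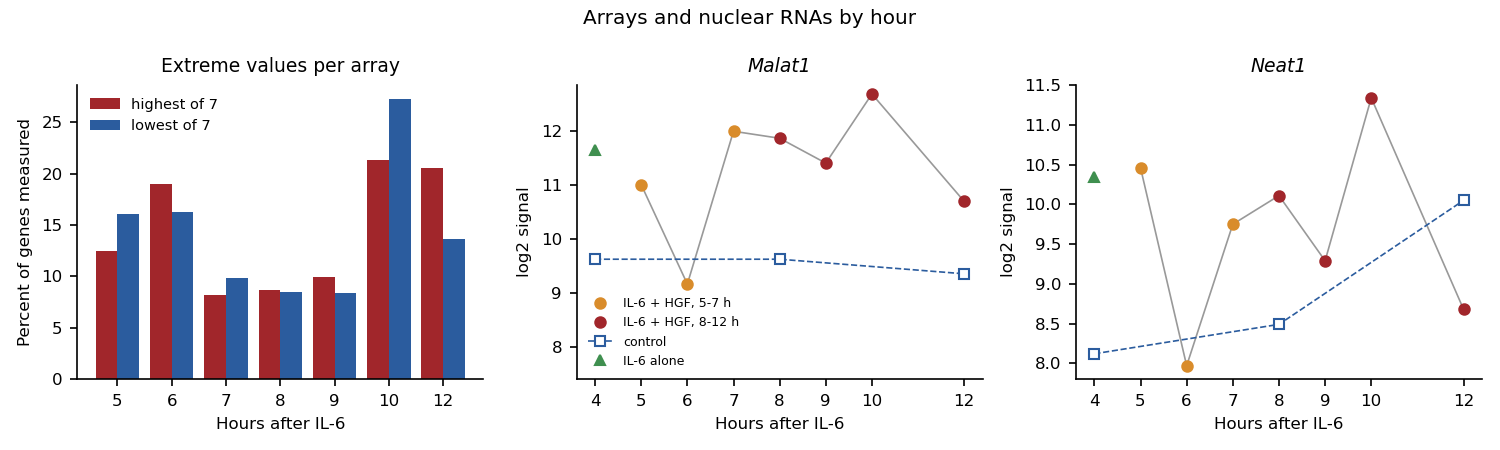
Left, percent of the 18193 genes for which each of the 7 IL-6 plus HGF arrays held the highest (red) or the lowest (blue) value, by hours after IL-6. Middle and right, log2 signal of Malat1 and Neat1 by hour, 1 array per point, with control and IL-6 alone for reference. The 10 h array held the lowest value for 27.3% of genes, and both nuclear RNAs were lowest at 6 h and highest at 10 h.

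The question of the comparison was which genes went on changing after the first hours of HGF. Genes of hepatocyte metabolism were lower in the late window and genes of mitosis were higher, with named differences of up to 3.29-fold. Tested as 2 windows with limma, 0 of 18193 genes (0%) passed an adjusted p of 0.05, the smallest adjusted p was 0.259, and 2120 genes (11.7%) had an unadjusted p under 0.05, of which 904 (4.97%) were higher and 1216 (6.68%) lower. The late arrays all lay above the early ones for 985 genes (5.41%) and all below for 1280 (7.04%). Counts of this kind in the lists below are to be read against these 2 shares.

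The same 7 arrays were also fitted with a slope on log2 of the hours, an alternative that treats change within a window as signal. A slope is given in log2 units per doubling of the hours since IL-6. This fit called 50 genes rising (0.275%) and 194 falling (1.07%), or 244 in all (1.34%), and 2597 (14.3%) had an unadjusted p under 0.05. Of all genes 57 (0.313%) were lower at each hour than at the one before and 20 (0.11%) higher, and 39 and 9 of these were among the calls. Without the 10 h array the fit called 223 rising and 349 falling, and these 572 genes held 240 of the 244. The number of calls depended on single arrays: it was 32 without the 6 h array and 37 without the 12 h array, with 32 of the 244 shared in each case, and 193, 100, 103 and 101 without the 5, 7, 8 and 9 h arrays. Of 72 passing genes named here 50, 21, 40, 41, 41, 70 and 21 still passed without the 5, 6, 7, 8, 9, 10 and 12 h arrays. In all 7 of these fits 16 passed, which were Ddc, Cdo1, Aass, Gnmt, Hpd, Cyp2b10, Slc10a2, Defb1, Fabp1, Crp, Ccnb2, Arntl, Npas2, Tef, Nr1d2 and Lyve1, and each of the other 56 lost its call in at least 1. Of those 56, 18 passed in only 1 of the 7 fits and 11 in only 2. Below, rose and fell refer to this slope fit, with limma's adjusted p over all genes, and differences between windows are given as values that did not pass. Genes named beyond those with the largest window differences were in part chosen after their values were seen.

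Many of these genes had a difference of the same sign in unstimulated cells. Of the 194 falling genes 169 were also lower in the mean of the 8 and 12 h controls than in the 4 h control, against 44.9% of all genes. Of the 50 rising genes 42 were higher in control, against 55.1% of all genes. The falling genes had a median slope of -0.74 per doubling of the hours and -0.25 in control, and the rising genes 0.66 and 0.23, where the first of each pair is the value that chose them. Differences between windows and those in control cover unlike spans: the windows have mean hours of 6 and 9.75, or 3.75 h apart, and the control values 4 and 10, or 6 h apart. The control median of a list below is therefore given for its direction only, and sizes are set side by side as slopes. A gene printed without control values may also have changed in control.

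**Figure D2:**
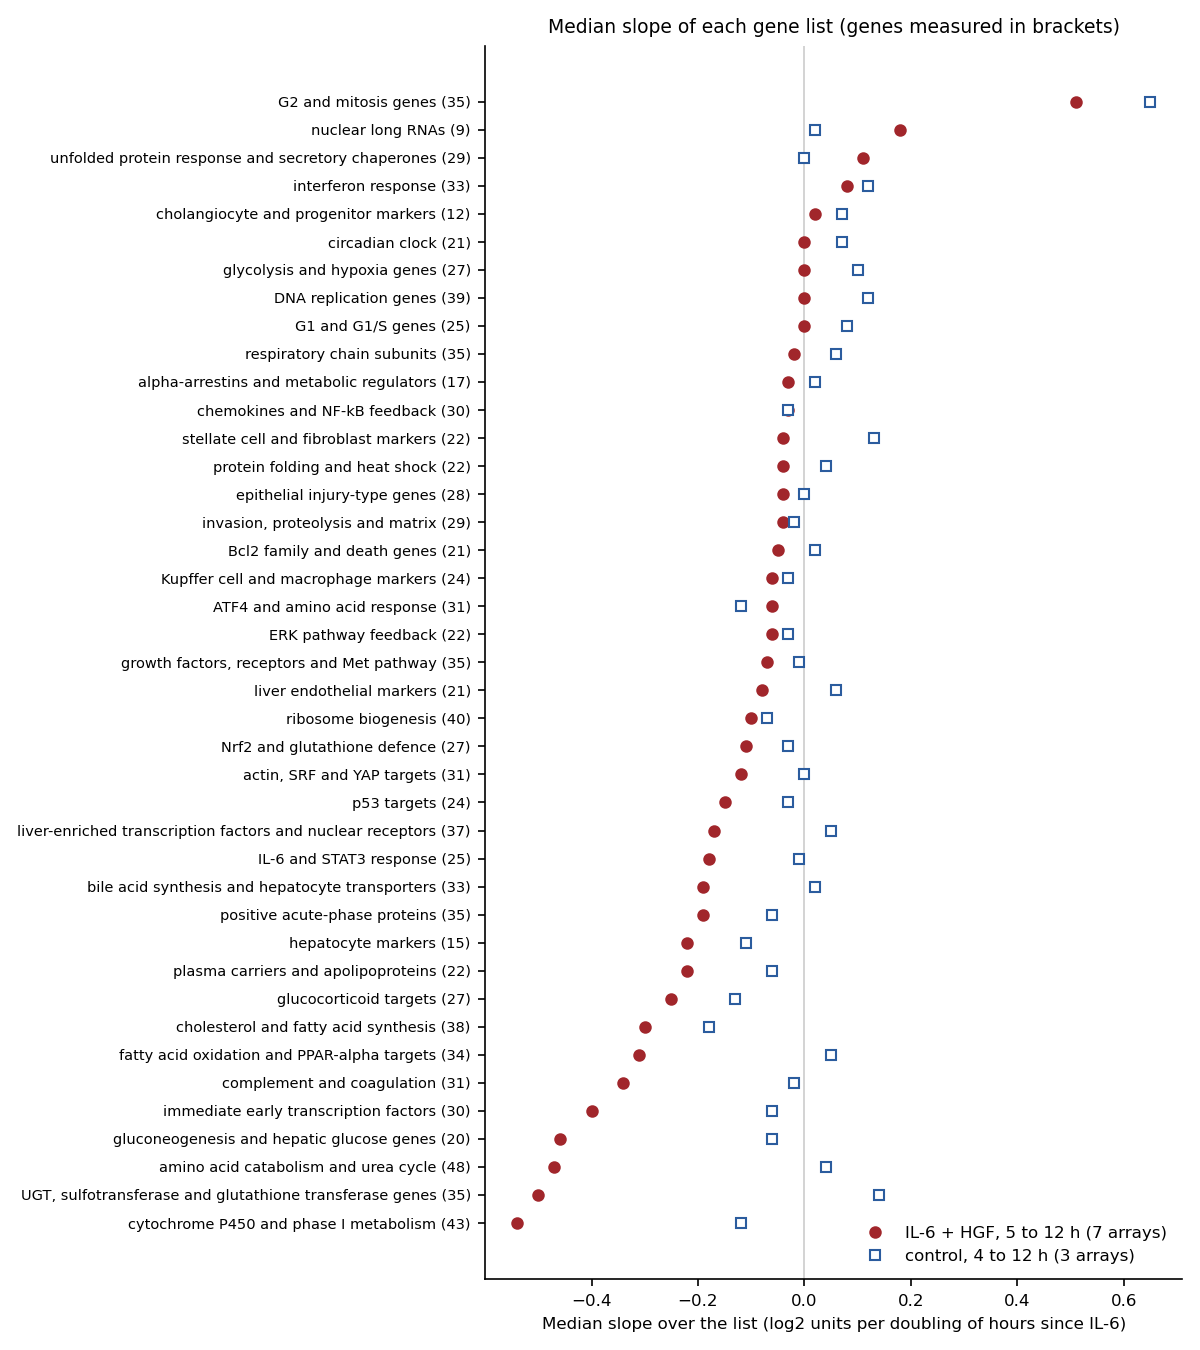
Median slope of each gene list (rows, genes measured in brackets) in log2 units per doubling of the hours since IL-6, over 5 to 12 h of IL-6 plus HGF (red circles, 7 arrays) and over 4 to 12 h of control (open blue squares, 3 arrays). G2 and mitosis genes had the highest median in both, at 0.51 and 0.65, and P450, conjugation and amino acid genes had the lowest in IL-6 plus HGF, between -0.54 and -0.47.

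Amino acid breakdown and the urea cycle held several of the steepest falls. Of 48 genes measured, 42 were lower in the late window with a median difference of -0.36 (all genes 0.01), 27 had windows that did not overlap with the late arrays lower, and 11 fell and 0 rose in the slope fit. Arg1, the arginase of the last step of the urea cycle, measured 7.80, 8.43 and 7.53 at 5, 6 and 7 h and 6.83, 6.10, 6.58 and 5.85 at 8, 9, 10 and 12 h. Every late array lay below every early one, while control measured 9.05, 9.89 and 9.35 at 4, 8 and 12 h. The window means of Arg1 were 7.92 ± 0.46 (SD, n = 3) and 6.34 ± 0.45 (SD, n = 4), a 2.99-fold lower late level with a log2 difference of -1.58 ± 0.26 (SE, limma adjusted p = 0.259). Its slope was -1.93 ± 0.32 (adjusted p = 0.027).

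Cps1, the mitochondrial carbamoyl phosphate synthetase that starts the urea cycle, was lower at each hour than at the one before, at 10.22, 10.03 and 9.90 and then 9.58, 9.01, 8.97 and 7.90. Its slope was -1.76 ± 0.21 (adjusted p = 0.00708), and 12 h stood 4.99-fold below 5 h. Control went from 10.70 at 4 h to 10.05 at 12 h, and the slopes did not differ past the threshold (difference -1.36, adjusted p = 0.205). Otc, the next enzyme of the cycle, measured 9.52, 9.44 and 9.32 and then 9.20, 9.15, 8.49 and 8.82, without passing (slope -0.72, adjusted p = 0.0711). Without the low 10 h array Otc passed (adjusted p = 0.0135).

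Ddc, the aromatic amino acid decarboxylase, and Cdo1, the cysteine dioxygenase that opens cysteine breakdown, had the steepest slopes among the genes named here after Baat. Ddc measured 7.76, 7.86 and 7.20 and then 6.89, 6.28, 5.94 and 5.32 (slope -2.12 ± 0.18, adjusted p = 0.00271). A further probe set of Ddc differed by 0.01 between the windows, so its probes disagree. Cdo1, which was not on the list, measured 10.19, 10.43 and 9.87 and then 9.36, 8.84, 8.73 and 7.85 (slope -2.01 ± 0.21, adjusted p = 0.00546). Both genes were above these ranges in all 3 controls, with Cdo1 at 11.01, 10.63 and 10.57 and Ddc at 9.38, 9.19 and 8.85 at 4, 8 and 12 h.

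Other enzymes of this group fell less steeply. Gnmt, the methyltransferase that balances S-adenosylmethionine, went from 10.80 at 5 h to 9.13 at 12 h and was lower at each hour (slope -1.30, adjusted p = 0.000481). In control it also went down, from 10.99 at 4 h to 9.77 at 12 h. Aass, which opens lysine breakdown, went from 8.86 to 7.07 over 5 to 12 h (slope -1.47, adjusted p = 0.00388). Hpd, of tyrosine breakdown, went from 8.67 to 7.39 (slope -1.03, adjusted p = 0.00504), while control held between 8.71 and 8.92. Tat, the tyrosine aminotransferase induced by glucocorticoids, went from 7.92 to 6.99 (slope -0.71, adjusted p = 0.0275). In control Aass went from 9.01 at 4 h to 8.23 at 12 h, and Tat from 8.25 to 7.84. Arg1 lost its call without the 6, 7, 8 or 12 h array (adjusted p between 0.0586 and 0.133), and Tat without any 1 of the arrays but that of 10 h (between 0.0575 and 0.139).

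**Figure D3:**
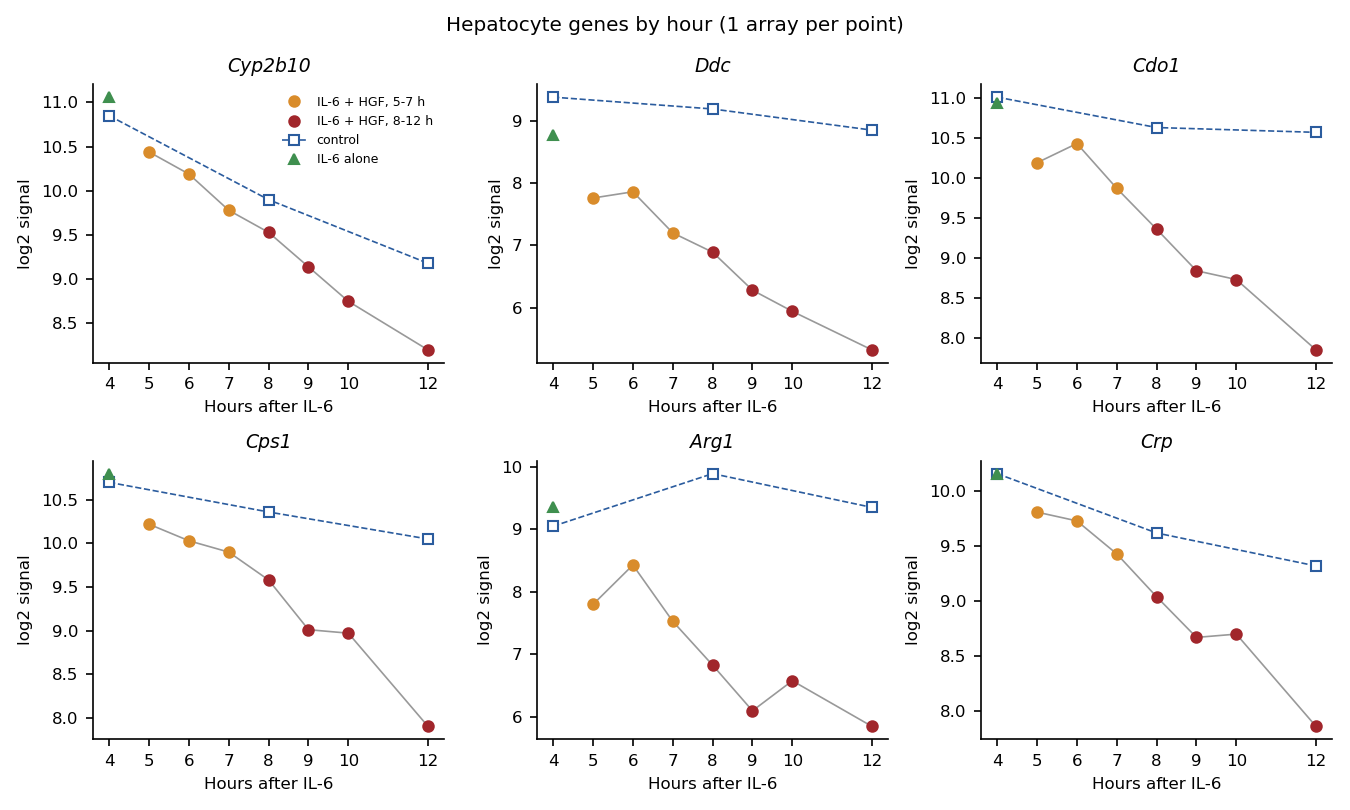
Log2 signal of Cyp2b10, Ddc, Cdo1, Cps1, Arg1 and Crp by hours after IL-6, 1 array per point, for IL-6 plus HGF in the early (orange) and late (red) windows, control (open blue squares) and IL-6 alone at 4 h (green triangle). In each gene all late points lie below all early points, and Cyp2b10 went from 10.44 at 5 h to 8.20 at 12 h beside 10.85 to 9.18 in control from 4 to 12 h.

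Cytochrome P450 enzymes, which oxidise drugs, steroids and fatty acids, were the largest group of falling genes. Of 43 phase I genes 37 were lower late (median -0.37), and 16 had late arrays all below the early ones and 2 all above (all genes 7.04% and 5.41%). In the slope fit 14 fell and 0 rose. Cyp2b10, the classic target of the receptor CAR, was lower at each hour, with 10.44, 10.19 and 9.78 and then 9.53, 9.14, 8.75 and 8.20. Its slope was -1.81 ± 0.11 (adjusted p = 0.000481), and its 3 probe sets had the same direction. Control cells went the same way, at 10.85, 9.90 and 9.18, and the slopes did not differ past the threshold (difference -0.77, adjusted p = 0.182).

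Cyp3a11, the main PXR-responsive drug oxidase, went from 12.94 at 5 h to 11.72 at 12 h (slope -0.89, adjusted p = 0.027). Cyp2e1, which oxidises ethanol and small solvents, went from 12.04 to 10.80 (slope -0.94, adjusted p = 0.0065), and in control from 12.30 at 4 h to 10.98 at 12 h. Cyp3a25 measured 7.00, 6.77 and 6.40 and then 6.35, 6.01, 5.32 and 5.53 (slope -1.34, adjusted p = 0.00841). In control Cyp3a11 went from 13.16 at 4 h to 12.79 at 12 h, and Cyp3a25 from 7.53 to 7.10. The members Cyp2c29, Cyp2c50, Cyp2c54, Cyp2d9, Cyp2f2, Cyp2j5, Cyp4a14 and Cyp4f14 and the carboxylesterases Ces1d and Ces1f also fell, with slopes between -1.03 and -0.54. Members of the Cyp2c, Cyp3a and Ces1 families resemble one another in sequence, and cross-hybridisation between them was not tested.

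Enzymes of conjugation, which attach glucuronic acid, sulphate or glutathione, were lower late in 34 of 35 genes (median -0.36), with 20 whose late arrays all lay below the early ones and 0 all above. In the slope fit 7 fell and 0 rose. Ugt2b35, a glucuronosyltransferase, measured 9.00, 9.46 and 8.97 and then 8.36, 8.33, 7.47 and 7.57, while control held between 10.79 and 11.03 (slope -1.53 ± 0.26, adjusted p = 0.0286). Sult1a1, a phenol sulphotransferase, went from 10.74 at 5 h to 9.19 at 12 h (slope -1.19, adjusted p = 0.00749), and in control from 10.88 at 4 h to 10.16 at 12 h. The others were Ugt2b1, Ugt2b34, Ugt2b36, Ugt2b38 and Gstm7, with slopes between -1.07 and -0.54. The control median of the group was 0.15, above 0, where that of phase I was -0.18.

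Bile acid genes moved in part. Of 33 genes of bile acid synthesis and hepatocyte transport 22 were lower late (median -0.09), and 5 fell and 0 rose. Late arrays lay all below the early ones for 11 and all above for 2 (all genes 7.04% and 5.41%). Baat, which joins bile acids to taurine or glycine, had the steepest slope named here, at 6.79, 7.63 and 7.20 and then 6.50, 5.91, 5.05 and 4.51 (-2.28 ± 0.42, adjusted p = 0.0371). In control Baat measured 8.06, 8.36 and 8.44, and its call was lost when any 1 of the arrays from 6 to 12 h was left out (adjusted p between 0.0544 and 0.183). Slc10a1, the sodium-dependent bile acid carrier NTCP of the blood side, was lower at each hour, from 6.97 at 5 h to 6.02 at 12 h (slope -0.79, adjusted p = 0.0132), with control between 7.14 and 7.26. Slc27a5, the bile acid CoA ligase, was also lower at each hour, from 11.01 to 10.10 (slope -0.72, adjusted p = 0.00708), and Cyp7b1, of the alternative synthesis route, went from 8.81 to 7.95 (slope -0.83, adjusted p = 0.0286). In control Slc27a5 went from 11.09 at 4 h to 10.38 at 12 h, and Cyp7b1 from 9.22 to 9.16. Fgfr4 was the last of the 5 (slope -0.69, adjusted p = 0.0478). Slc10a2, the apical carrier ASBT, was not on this list. It measured 6.98, 6.63 and 6.53 and then 5.55, 5.68, 4.87 and 4.80, a 2.80-fold lower late mean (slope -1.91, adjusted p = 0.00504).

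Fatty acid oxidation and PPAR-alpha targets were lower late in 27 of 34 genes (median -0.27, control 0.05), with 17 whose late arrays all lay below the early ones and 0 all above, and 6 fell and 0 rose. Fabp1, the liver fatty acid-binding protein, measured 10.15, 9.59 and 9.30 and then 9.25, 8.64, 8.67 and 8.06 (slope -1.56 ± 0.12, adjusted p = 0.00143). Creb3l3, a liver transcription factor of lipid genes, measured 9.28, 9.31 and 9.20 and then 8.79, 8.73, 8.58 and 8.07, with control between 9.56 and 9.76 (slope -0.98, adjusted p = 0.0123). Acaa1b, a peroxisomal thiolase, went from 9.98 at 5 h to 8.99 at 12 h (slope -0.88, adjusted p = 0.00835). Ehhadh, the peroxisomal bifunctional enzyme, went from 7.91 to 6.86 (slope -1.17, adjusted p = 0.0431), and lost its call when any 1 of the arrays from 6 to 12 h was left out (adjusted p between 0.054 and 0.16). Acot12 and Slc27a2 fell as well. In control Ehhadh went from 9.69 at 4 h to 8.55 at 12 h, Acaa1b from 10.50 to 9.99 and Fabp1 from 10.44 to 9.87.

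Cholesterol and fatty acid synthesis genes were lower late in 36 of 38 genes (median -0.20), and the control median was -0.21, and 5 fell and 0 rose. Insig1, the sterol sensor that holds back SREBP, measured 8.96, 8.60 and 8.54 and then 8.42, 8.21, 8.02 and 8.10 (slope -0.72, adjusted p = 0.0142), and in control 8.23, 7.89 and 7.36. Hmgcs1, of the mevalonate path, went from 12.65 at 5 h to 11.78 at 12 h (slope -0.61, adjusted p = 0.0286). Scd1, the stearoyl-CoA desaturase, went from 13.17 to 12.61 (slope -0.45, adjusted p = 0.0345). Msmo1 and Dhcr7 were the other 2. In control Scd1 went from 13.26 at 4 h to 12.50 at 12 h, and Hmgcs1 from 12.08 to 11.45.

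Genes of glucose output were lower late in 19 of 20 (median -0.35), with 8 whose late arrays all lay below the early ones and 0 all above, and 3 fell and 0 rose. Slc2a2, the glucose transporter GLUT2, measured 8.33, 7.97 and 7.50 and then 7.55, 7.24, 6.44 and 6.59, with windows that overlapped by the 7 and 8 h arrays (slope -1.49 ± 0.18, adjusted p = 0.00708). Control held between 8.70 and 8.84. Fbp1, the fructose bisphosphatase of gluconeogenesis, went from 10.57 at 5 h to 9.53 at 12 h (slope -0.80, adjusted p = 0.00645), and in control from 10.75 at 4 h to 10.46 at 12 h. Slc37a4, the carrier that brings glucose 6-phosphate into the endoplasmic reticulum, went from 8.30 to 7.33 (slope -0.76, adjusted p = 0.0132), with control between 8.57 and 8.64.

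Pck1, the gate enzyme of gluconeogenesis, was the gene whose course differed from control past the threshold. In the 7 arrays it stayed low, at 3.62, 3.67 and 3.80 and then 3.59, 3.60, 3.48 and 3.54 (difference -0.14 ± 0.08, adjusted p = 0.515). In control it measured 4.68 at 4 h, 6.50 at 8 h and 7.17 at 12 h, and with IL-6 alone 4.23 at 4 h. The difference between the windows minus that in control was -2.30 (limma adjusted p = 0.0337), and the difference in slope -1.73 (adjusted p = 0.00398). It was the 1 gene called of 18193 by either test (0.0055% each), beside 651 (3.58%) with an unadjusted p under 0.05 for the windows and 1357 (7.46%) for the slopes. The window call was lost when any 1 of the 7 arrays was left out (adjusted p between 0.104 and 0.18). Both the window call and the slope call were lost with the mean of its 3 probe sets in place of the brightest. Of the 3 probe sets 2 had a negative difference. The 2 differences cover unlike spans of hours, as given above. The 4 h control is a single array, and its spread was taken from the other groups. Mean signal of Pck1 was at the 19.1 percentile of genes, so the filter on dim genes removes it, and the size of a change near the bottom of the scale is uncertain.

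Acute-phase genes, the class that IL-6 is known to raise, were mostly lower late. At 4 h the mean of the list was 11.29 with IL-6 alone and 11.11 in control. Of 35 positive acute-phase genes 30 were lower late (median -0.18, control -0.07), 11 had late arrays all below the early ones and 0 all above, and 4 fell and 0 rose. Crp, the pentraxin C-reactive protein, measured 9.81, 9.73 and 9.43 and then 9.04, 8.67, 8.70 and 7.86 (slope -1.53 ± 0.15, adjusted p = 0.00494). In control Crp also went down, at 10.16, 9.62 and 9.32. IL-6 alone gave 10.16 at 4 h, so Crp was not above control at that hour. Apcs, the serum amyloid P component, went from 11.92 at 5 h to 11.32 at 12 h (slope -0.54, adjusted p = 0.0286). It measured 12.06 with IL-6 alone at 4 h, and in control 12.08 at 4 h and 11.26 at 12 h. The metallothioneins Mt1 and Mt2, which bind zinc and copper, measured 13.73 at 5 h and 12.29 at 12 h (Mt1, slope -1.11, adjusted p = 0.00976) and 13.08 and 12.26 (Mt2, slope -0.79, adjusted p = 0.032). At 4 h they measured 13.77 and 13.28 with IL-6 alone. In control at 4, 8 and 12 h Mt1 measured 13.41, 12.72 and 12.85, and Mt2 12.56, 12.52 and 12.71.

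The IL-6 and STAT3 response list followed the same direction, with 20 of 25 genes lower late (median -0.14, control -0.02), 8 with late arrays all below the early ones and 0 all above, and 3 that fell and 0 that rose. Socs3 measured 10.77, 10.59 and 10.43 and then 10.31, 9.99, 11.04 and 9.80, against 7.12 to 7.47 in control, so all 7 arrays lay above control. Its 10 h value was the highest of the 7, and its slope passed without that array (adjusted p = 0.0065) and not with it (-0.48 ± 0.29, adjusted p = 0.505). Cebpd, which encodes the acute-phase regulator C/EBP delta, measured 10.28, 10.94 and 10.80 and then 10.54, 10.05, 10.52 and 10.37, with no slope past the threshold (adjusted p = 0.749) and control between 8.26 and 8.40. Bcl3, an NF-kB partner induced by IL-6, went from 10.53 at 5 h to 9.71 at 12 h (slope -0.67, adjusted p = 0.0383), with control between 9.55 and 9.90. Il1r1, the IL-1 receptor, measured 9.63, 9.59 and 9.56 and then 9.26, 9.10, 8.80 and 8.95 (slope -0.70, adjusted p = 0.0318), although its other probe set differed by 0.06. Lifr, a receptor that pairs with gp130, went from 7.85 to 7.24 (slope -0.59, adjusted p = 0.0291). Of its 3 probe sets 2 had this direction, and control went from 8.08 at 4 h to 7.83 at 12 h. Bcl3, Il1r1 and Lifr lost their calls without any 1 of the arrays but that of 10 h (adjusted p between 0.0522 and 0.189). With the mean of all probe sets the calls of Il1r1 and Lifr were also lost. Il6st, which encodes gp130, went from 10.13 to 9.75 without passing (slope -0.29, adjusted p = 0.133).

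Complement and coagulation genes, also made by hepatocytes, were lower late in 28 of 31 (median -0.26, control -0.06). Late arrays all lay below the early ones for 20 genes and above for 1. In the slope fit 4 fell and 0 rose. Plg, the gene of plasminogen, measured 11.72, 11.74 and 11.50 and then 11.38, 11.27, 10.99 and 10.94 (slope -0.71, adjusted p = 0.0126). C8a, of the membrane attack complex, was lower at each hour, from 9.72 to 8.65 (slope -0.79, adjusted p = 0.0145). In control Plg went from 11.80 at 4 h to 11.47 at 12 h, and C8a from 10.03 to 9.47. F10 and C9 passed at the edge (adjusted p = 0.05 each after rounding) and lost the call after quantile normalization or centring. Of 22 plasma carriers and apolipoproteins 20 were lower late (median -0.15, control -0.09), 10 with late arrays all below, and 0 passed in either direction.

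Immediate early transcription factors were highest in the first hour after HGF. Their mean over 30 genes was 9.61 at 5 h, 1 h after HGF, 9.16 at 6 h, and between 8.89 and 9.05 from 8 to 12 h, with control between 8.71 and 8.79. In 26 of 30 genes the late mean was lower (median -0.26), 6 had late arrays all below the early ones and 0 all above, and 3 fell and 0 rose. Egr2, a zinc finger factor of the early growth response family, measured 5.92, 4.90 and 4.41 and then 4.22, 4.24, 4.00 and 3.85 (slope -1.48 ± 0.22, adjusted p = 0.0177). The 5 h array was far above the rest, and control measured 3.63, 3.83 and 4.29. Mean signal of Egr2 was at the 16.1 percentile of genes, so the size of its change is uncertain. Fosl1, the AP-1 subunit FRA1, measured 10.87, 10.75 and 10.17 and then 10.04, 9.81, 9.97 and 9.87 (slope -0.89, adjusted p = 0.029), against 10.22, 9.98 and 9.71 in control.

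Srf, which encodes the serum response factor that acts on many immediate early genes, measured 9.45, 9.45 and 9.29 and then 9.15, 8.99, 9.08 and 8.81 (slope -0.52, adjusted p = 0.029). The promoter of Egr2 is shown because it holds a match, in capitals, to the CArG box that serum response factor binds. The match lay within the 250 bases before a RefSeq start (GRCm38.p6, plus strand, chr10:67537316-67537565, 1 of 5 starts listed).
Egr2: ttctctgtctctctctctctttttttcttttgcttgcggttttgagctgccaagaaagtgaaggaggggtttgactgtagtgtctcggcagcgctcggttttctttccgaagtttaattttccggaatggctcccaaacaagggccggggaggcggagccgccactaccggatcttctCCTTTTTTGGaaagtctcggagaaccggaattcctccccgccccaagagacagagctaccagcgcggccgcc
The match began 72 bases before the start. The SRF CArG motif reads the same form on both strands and was found in 1.47% of 32851 promoters of this length. Of the 3 genes that fell, 2 had a listed promoter, Egr2 and Srf, and both held a match. Lmcd1 and Kif20b, which rose, also held a match, and no binding was measured here.

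Feedback genes of the ERK pathway had a median of -0.06 over 22 genes and 0 past the threshold. Dusp6, the phosphatase that inactivates ERK, measured 9.19, 9.78 and 9.53 and then 9.27, 9.02, 8.89 and 9.25, a course with its top at 6 h and no slope past the threshold (adjusted p = 0.519). Met, the HGF receptor, was lower at each hour, at 10.58, 10.55 and 10.40 and then 10.33, 10.30, 10.23 and 10.21. The steps were small and its slope did not pass (-0.33 ± 0.08, adjusted p = 0.0909). Myc measured 10.77, 10.65 and 10.18 and then 10.06, 10.16, 10.41 and 10.39, lowest in the middle of the course (adjusted p = 0.486).

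Mitosis genes had the highest median difference of the gene lists. Of 35 genes of G2 and mitosis 33 were higher (median 0.37, and 0.48 without the 10 h array), 12 had late arrays all above the early ones and 0 all below, and 5 rose and 0 fell. Without the 10 h array 14 rose and 0 fell. The mean over the 35 genes was 6.59, 6.45 and 6.61 in the early window and 6.72, 6.99, 6.67 and 7.31 at 8, 9, 10 and 12 h, with the 10 h array low. In control the mean went from 6.39 at 4 h to 7.01 at 8 h and 7.48 at 12 h. The median slope of the list was 0.51, and 0.65 in control, and the slopes relative to control were negative in 25 of 35 genes and positive in 10, with 0 past the threshold.

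Ccnb2, a B-type cyclin that with CDK1 drives entry into mitosis, was higher at each hour, at 6.03, 6.04 and 6.30 and then 6.51, 6.93, 6.94 and 7.55. Its slope was 1.23 ± 0.14 (adjusted p = 0.00614) and 12 h stood 2.87-fold above 5 h. In control it measured 5.86, 6.89 and 7.76, and the slopes differed by 0.05 (adjusted p = 0.985). Cdc20, which activates the anaphase-promoting complex, measured 7.39, 7.24 and 7.43 and then 7.82, 8.26, 7.83 and 8.70 (slope 1.05, adjusted p = 0.0419), with 8.02 and 8.69 in control at 8 and 12 h. Cenpa, the centromeric histone, went from 6.22 to 7.73 (slope 1.15, adjusted p = 0.0252), Ttk, a spindle checkpoint kinase, from 5.54 to 6.66 (slope 0.82, adjusted p = 0.027) and Kif23, a kinesin of cytokinesis, from 6.58 to 7.26 (slope 0.56, adjusted p = 0.0409). These 4 calls were lost with the mean of all probe sets and without the 6, 7, 8, 9 or 12 h array, and that of Kif23 also without the 5 h array. The call of Ccnb2, which has 1 probe set, was kept in each case.

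**Figure D4:**
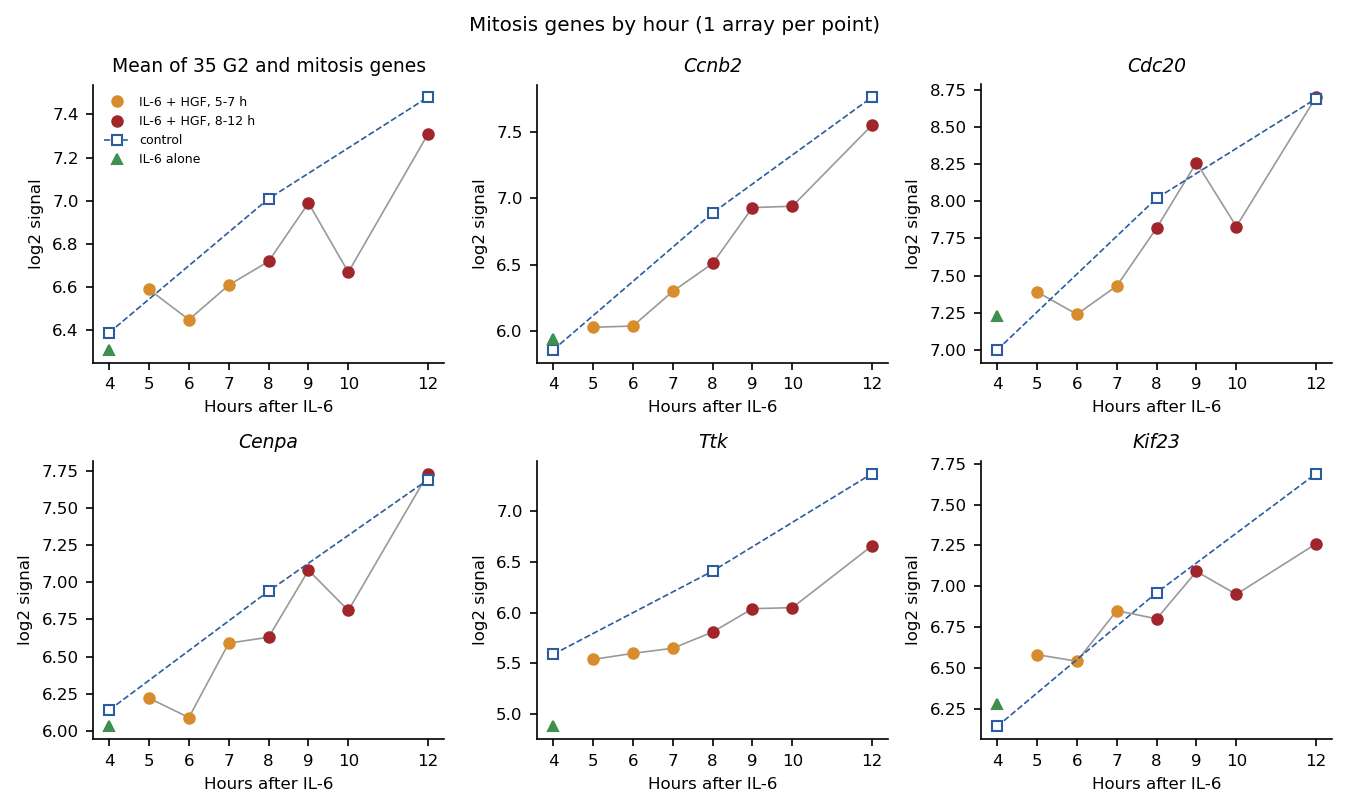
Log2 signal by hours after IL-6 for the mean of 35 G2 and mitosis genes and for Ccnb2, Cdc20, Cenpa, Ttk and Kif23, 1 array per point, for IL-6 plus HGF (early window orange, late red), control (open blue squares) and IL-6 alone at 4 h (green triangle). The mean of the 35 genes went from 6.59 at 5 h to 7.31 at 12 h and in control from 6.39 at 4 h to 7.48 at 12 h, with the 10 h array low at 6.67.

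The promoter of Ccnb2 is shown because it holds a match to the cell cycle homology region (CHR), an element of genes of late cell cycle. The match (TTTGAA on either strand, in capitals) lay within the 250 bases before its RefSeq start (GRCm38.p6, minus strand, chr9:70421555-70421804).
Ccnb2: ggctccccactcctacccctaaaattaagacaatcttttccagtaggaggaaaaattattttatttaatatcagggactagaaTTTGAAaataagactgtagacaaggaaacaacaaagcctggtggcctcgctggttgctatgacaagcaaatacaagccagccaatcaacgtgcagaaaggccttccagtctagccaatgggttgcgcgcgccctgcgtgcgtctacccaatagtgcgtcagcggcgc
The match began 167 bases before the start. A CHR match was found in 2 of the 5 rising mitosis genes, Ccnb2 and Cdc20, and in 16% of 32851 promoters, so a match of 6 letters is common. Falling genes held it too, among them Aass, Cyp2e1 and Sult1a1, and no binding was measured here.

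Genes of the phases before mitosis were split in direction. Of 39 DNA replication genes 21 were higher and 18 lower (median 0.01), and of 25 G1 and G1/S genes 13 were higher and 12 lower (median 0.01), with 0 past the threshold in either list. In control 37 of the 39 and 18 of the 25 were higher at 8 and 12 h than at 4 h (medians 0.15 and 0.12). Slopes relative to control were negative in 33 and positive in 6 of the replication genes. In the G1 and G1/S genes 16 were negative and 9 positive. Ccnd1, the D-type cyclin that carries growth factor signals into the cycle, measured 8.01, 7.95 and 7.89 and then 7.97, 7.84, 7.27 and 7.95, flat but for the 10 h array. Mki67, a marker of cycling cells, measured 7.01, 6.77 and 6.91 and then 7.00, 7.19, 6.89 and 7.16 (adjusted p = 0.591), while control went from 6.66 at 4 h to 7.69 at 12 h. Plk1, a polo-like kinase of mitosis and not of these earlier phases, measured 6.84, 6.83 and 6.83 and then 7.31, 7.58, 7.10 and 7.94. Its late arrays all lay above the early ones, and it passed without the 10 h array (adjusted p = 0.021) and not with it (adjusted p = 0.0864).

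Circadian clock genes moved in both directions. In the clock the activators BMAL1 (Arntl), CLOCK and NPAS2 drive E-box genes, among them the repressors of the PER, CRY and REV-ERB families and the PAR factors DBP and TEF. Of 21 clock genes 4 had late arrays all above the early ones and 5 all below (all genes 5.41% and 7.04%). In the slope fit 2 rose and 3 fell, and the median difference was 0.00. Arntl was lower at each hour, at 8.70, 8.33 and 8.16 and then 7.88, 7.57, 7.43 and 6.94 (slope -1.36 ± 0.09, adjusted p = 0.000481). Control followed nearly the same path, at 8.73, 7.76 and 6.86, and the slopes differed by -0.21 (adjusted p = 0.832). Npas2 measured 5.68, 5.49 and 5.07 and then 4.98, 4.65, 4.66 and 4.56 (slope -0.97, adjusted p = 0.00645), and in control 5.91, 4.85 and 4.11. Its mean signal was at the 30.8 percentile of genes, so the filter on dim genes removes it. The other probe sets of Arntl and Npas2 differed by 0.00 and 0.03. Rora, the nuclear receptor that activates Arntl, went from 9.27 at 5 h to 8.63 at 12 h (slope -0.62, adjusted p = 0.039), with 7 of its 9 probe sets in that direction.

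Among the genes driven by the activators, Nr1d2, which encodes REV-ERB beta, was higher at each hour, at 9.42, 10.11 and 10.21 and then 10.28, 10.71, 10.88 and 10.94 (slope 1.17 ± 0.14, adjusted p = 0.0065). Tef was also higher at each hour, at 8.26, 8.53 and 8.60 and then 8.89, 8.98, 9.35 and 9.46 (slope 0.98 ± 0.10, adjusted p = 0.00499), and its 3 probe sets had the same direction. Both stood higher in control at 8 and 12 h, with Nr1d2 at 10.99 and 11.20 and Tef at 9.40 and 9.96. Dbp measured 4.42, 5.05 and 4.89 and then 5.03, 5.23, 4.95 and 5.97, short of the threshold (adjusted p = 0.0929), while control went from 4.67 to 6.77. Cry1 measured 8.12, 7.43 and 7.79 and then 7.35, 7.04, 7.17 and 7.08 (adjusted p = 0.0675), and Per1 had a slope of 0.00.

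**Figure D5:**
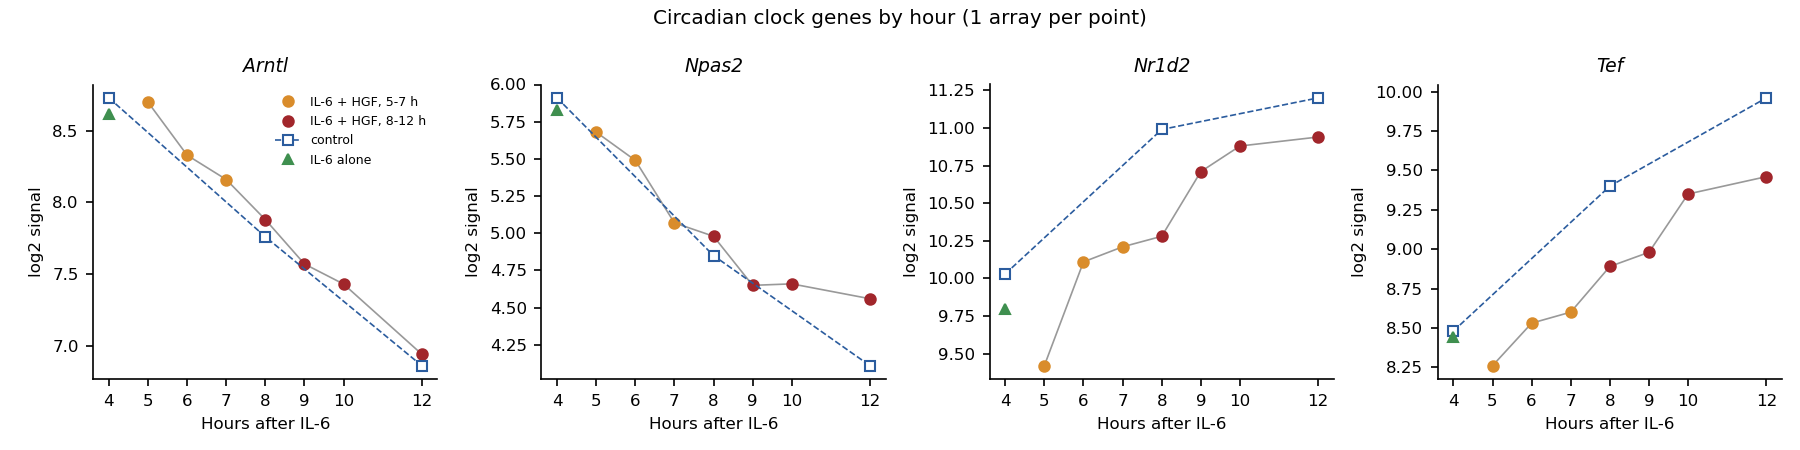
Log2 signal of Arntl, Npas2, Nr1d2 and Tef by hours after IL-6, 1 array per point, for IL-6 plus HGF (early window orange, late red), control (open blue squares) and IL-6 alone at 4 h (green triangle). Arntl went from 8.70 at 5 h to 6.94 at 12 h beside 8.73 to 6.86 in control from 4 to 12 h, and Tef went up from 8.26 to 9.46 beside 8.48 to 9.96.

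The promoter of Tef is shown because it holds the E-box CACGTG (in capitals, the same on both strands), the element of the clock activators, within the 250 bases before a RefSeq start (GRCm38.p6, plus strand, chr15:81802423-81802672, 1 of 2 starts listed).
Tef: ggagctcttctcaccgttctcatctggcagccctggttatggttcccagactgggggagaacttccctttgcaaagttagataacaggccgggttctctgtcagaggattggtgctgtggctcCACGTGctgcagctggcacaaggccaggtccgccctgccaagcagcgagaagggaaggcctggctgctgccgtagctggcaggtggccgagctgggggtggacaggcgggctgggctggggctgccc
The match began 127 bases before the start. Of the 5 clock genes that rose or fell 1 held the E-box in this window, against 6.02% of 32851 promoters, and no binding was measured here.

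Some genes that stood above control in both windows rose further. Havcr1, the injury molecule KIM-1, measured 5.95, 6.03 and 5.95 and then 6.26, 6.59, 6.35 and 6.96, while control held between 5.00 and 5.35 (slope 0.76 ± 0.15, adjusted p = 0.0456). Its mean signal was at the 38.8 percentile of genes. Lmcd1, a LIM-domain cofactor, was higher at each hour, at 7.37, 7.49 and 7.59 and then 7.73, 7.75, 7.87 and 8.52, with control between 6.10 and 6.74 (slope 0.78, adjusted p = 0.0318). Over the 28 genes of the injury-type list the median was 0.00, and 5 had late arrays all above and 2 all below (all genes 5.41% and 7.04%). In the slope fit 2 rose and Akap12, an A-kinase anchor, fell (slope -1.37, adjusted p = 0.00651). In control Akap12 also went down, from 8.29 at 4 h to 6.81 at 12 h. Fbln2, a matrix fibulin, measured 5.86, 6.06 and 6.24 and then 6.13, 6.46, 6.71 and 6.85, with control between 5.30 and 5.45 (slope 0.79, adjusted p = 0.0132). Rdh10, the retinol dehydrogenase that starts retinoic acid synthesis, went from 10.77 to 11.58, with control between 8.99 and 9.26 (slope 0.65, adjusted p = 0.0286). Havcr1, Lmcd1 and Rdh10 lost their calls without any 1 of the arrays but that of 10 h (adjusted p between 0.0528 and 0.208). Fbln2 lost its call without the 6 or 12 h array. With the mean of all probe sets the calls of Havcr1 and Fbln2 were also lost. Timp1, an inhibitor of metalloproteinases, measured 9.65, 9.63 and 9.64 and then 9.93, 10.15, 9.87 and 10.48, with windows apart and no call (adjusted p = 0.0821, and 0.0258 without the 10 h array).

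Among 21 genes of the Bcl2 family and cell death 2 rose. Bcl2l11, which encodes the death factor BIM, measured 7.54, 7.61 and 8.16 and then 8.08, 8.33, 8.33 and 8.38 (slope 0.74, adjusted p = 0.028), with control between 7.11 and 7.38. Casp6, an executioner caspase, went from 9.24 at 5 h to 9.99 at 12 h (slope 0.51, adjusted p = 0.029), and control from 9.45 at 4 h to 9.84 at 12 h. The other members did not pass. Of 29 genes of the unfolded protein response 5 had late arrays all above the early ones and 0 all below (all genes 5.41% and 7.04%). Of the 29 genes 19 were higher late (median 0.06), and 0 passed. Among them Hspa5, the chaperone BiP, measured 13.58, 13.67 and 13.76 and then 13.83, 13.89, 13.84 and 13.83 (adjusted p = 0.278), and Creld2 went from 9.63 to 10.31 (adjusted p = 0.0542). Of 35 respiratory chain subunits 0 passed (median -0.03).

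By size of window difference among the genes of smallest p, the 10 lowest were Arg1, Ddc, Slc10a2, Cdo1, Cyp2b10, Ugt2b35, Defb1, Chdh, Crp and Mtarc1, between -1.58 and -1.08. All 10 fell in the slope fit. Chdh, the choline dehydrogenase, measured 6.36, 6.73 and 6.35 and then 5.91, 5.28, 5.65 and 4.71, with control between 8.21 and 8.33. Mtarc1, a mitochondrial amidoxime reductase, went from 8.35 at 5 h to 6.57 at 12 h, while control went from 9.28 at 4 h to 9.71 at 12 h. The difference in slope of Mtarc1 from control, -1.78, did not pass (adjusted p = 0.0588). Defb1, a beta-defensin, went from 6.66 to 5.06 and in control from 8.06 to 6.62.

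The 10 highest were Tef, Kif20b, Basp1, Csmd2, Git2, Kif26b, Ky, Dmrt3, Dhh and Mdm1, between 0.70 and 0.33, so the rises were smaller than the falls. Of these Tef, Kif20b, a kinesin of mitosis (slope 0.68, adjusted p = 0.02), and Basp1, a membrane-bound signalling protein (slope 0.68, adjusted p = 0.0226), rose in the slope fit. Basp1 measured 8.55, 8.52 and 8.55 and then 8.84, 8.94, 9.09 and 9.33. Csmd2, Kif26b, Ky, Dmrt3, Dhh and Mdm1 had a mean signal under the 40th percentile of genes, where signal and background are hard to tell apart, and did not pass. Of the passing genes named here, Egr2, Npas2, Ugt2b38 and Havcr1 also lay under that percentile, so the same limit holds for them.

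Other cells of the liver can be carried into hepatocyte cultures. Of 24 Kupffer cell and macrophage markers 9 were higher and 15 lower late (median -0.03), and their mean lay between 7.00 and 7.25 early and between 7.00 and 7.18 late. The mean of 22 stellate cell and fibroblast markers lay between 6.45 and 6.46 early and between 6.34 and 6.52 late, and that of 12 cholangiocyte and progenitor markers between 6.00 and 6.06 and between 5.95 and 6.12. In these 3 lists 0 genes passed. Of 21 endothelial markers, with means between 6.60 and 6.85 early and between 6.40 and 6.70 late, 1 passed. This was Lyve1, the hyaluronan receptor of sinusoidal and lymphatic endothelium, which measured 8.41, 7.78 and 7.34 and then 7.58, 7.05, 6.35 and 6.10 (slope -1.78 ± 0.19, adjusted p = 0.00508) and in control 8.04, 7.72 and 6.96. In bulk cells fewer cells of a type and less RNA per cell cannot be told apart. Of the 15 hepatocyte markers 14 were lower late (median -0.15, control -0.12), 9 with late arrays all below the early ones, and Cps1, Tat, Cyp2e1 and Fabp1 fell.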

How the data were processed

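The series holds 18 Affymetrix arrays, each with 45101 probe sets and 1 dye, and 7 were compared here. The deposited values are log2 signals by their range (2.095 to 15.049). How the authors summarised and normalised the arrays is not given in the sources used here, and the deposited log2 values were taken as they stood. Genes with several probe sets were represented by the brightest on average over the 18 arrays, which gave 18193 genes. The number of arrays limits the precision.

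Fits used limma 3.58.1 in R 4.3.3 (lmFit, eBayes, two-sided), with p-values adjusted by Benjamini-Hochberg across the 18193 genes and called under 0.05. They were 8 to 12 h minus 5 to 7 h (7 arrays), the same minus the control change (10 arrays), and slopes on log2 hours, alone and against the controls at 4, 8 and 12 h. Alternatives were scalings, a filter under the 40th percentile, variance model, probe sets, size and arrays left out. Genes were named by rule: the 10 highest and 10 lowest differences among the 100 smallest p, up to 2 members of each list, and 12 fixed genes. Others were chosen after their values were seen. The members and the 41 lists (1155 symbols, 1082 measured) were chosen with earlier results of these data known.

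All 4 fits were run on simulated data with known changes, where the window fit recovered 100% of 67 genes with a log2 change of 1. The simulated noise was independent between arrays, no array stood apart, and the window change was a step. These settings differ from the arrays here, so the recovery does not carry over to them. Promoters came from RefSeq (GRCm38.p6), where 87 of 105 genes checked had an entry.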

Additional observations from a re-analysis of the deposited data

Results flagged for a closer look

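The kinesin gene Kif20b had 1 late array far from the other 3: it measured 6.22 at 8 h and between 6.51 and 6.52 at 9, 10 and 12 h. Of 105 genes checked in this way 1 was found, and chance alone gives about 1 in 20.

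Pck1 differed from control both in its change between the windows (-2.30 relative to control, limma adjusted p = 0.0337) and in its slope (-1.73, adjusted p = 0.00398). It was lower in the late window by 0.14 with IL-6 plus HGF and higher by 2.16 in control.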

How the results depend on the processing

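The window comparison called 0 genes under every alternative that kept 2 windows, with 2120 genes at an unadjusted p under 0.05 in the fit as reported. The slope on log2 hours called 244. The change relative to control called 1 gene, and 0 with the filter on dim genes, with the mean of all probe sets, and with late arrays at 8 and 12 h only. With an array left out it called between 0 and 1. The slope called 372 genes with an intensity trend and robust variance (86 rising, 286 falling) and 47 with a slope of at least 1, and between 32 and 572 with an array left out. Of 72 named genes that passed, 50, 21, 40, 41, 41, 70 and 21 did so without the 5, 6, 7, 8, 9, 10 and 12 h arrays, 16 in all 7 of these fits, and 55 with the mean of all probe sets. The slope relative to control called 0 genes with the filter, 0 with the mean of all probe sets, 3 with the trend and robust variance, and between 1 and 79 with an array left out (79 without the 5 h array, 78 of them lower). The slope results, list medians and their alternatives were added after the data had been seen, apart from the slope itself. The lone 4 h control was not left out. The cause of these shifts was not tested, and arrays of 1 per hour limit all of them. No paired analysis was possible because the labels carry no replicate numbers, each hour being 1 array.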
